A study of Homo sapiens with 10 samples.

Results

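Protein-coding gene ends are described here, taken as the last transcribed base of the canonical transcript of each autosomal protein-coding gene in GENCODE release 44 on GRCh38. Of 19111 such ends, 9759 had no other annotated gene within 2000 bp and were kept. They were examined in human induced pluripotent stem cells (hiPSCs) of the line PB010.5, which carries the FUCCI fluorescent cell cycle reporter, grown undifferentiated. Permeabilised cells were digested for 5 min with micrococcal nuclease (MNase), an enzyme that cuts the linker DNA between nucleosomes, at 5 concentrations, from 0.5 U and 1 U through 3 U to 6 and 10 U. The 10 samples are these 5 digestions, each sequenced as 150-bp and as 50-bp (Low Depth) paired reads, and every library carried a spike-in of yeast mononucleosomal DNA. The authors deposited a single pooled list of 12921589 nucleosome positions from this titration, each an interval of 140 bp with a score, and which runs were pooled is not given in the sources used here.

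A protein-coding transcript is released when the cleavage and polyadenylation machinery recognises a signal hexamer near its 3′ end, most often AATAAA, together with T- and GT-rich sequence just downstream, and cuts the RNA between them. Poly(A) polymerase then extends the cut end, while RNA polymerase II continues past it before it is released. Runs of A or T bend poorly around the histone octamer, MNase cuts readily in AT-rich sequence, and AT-rich DNA is often under-represented in sequencing libraries, so a shortage of called positions in such DNA can have several sources.

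The list has no column for a single MNase concentration and no replicate. The values below therefore carry the SD over the 22 autosomes as their spread, shares carry 95% Wilson intervals that cover counting error only, and no p-value is given. The number of reads behind a position is unknown, and the scores, whose scaling is not stated, had a median of 14.8 with quartiles of 9.87 and 19.7 over the whole list. Within 1500 bp of a gene end lay 142949 different positions. Single ends had a median of 15 positions within that distance (quartiles 13 and 17, highest 22), 1198 ends had fewer than 12, and 218 had none.

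The sequence around a few ends shows what a gene end looks like to the nuclease and to the caller of positions. The 8 ends below are written 5′ to 3′ on the coding strand of GRCh38, which reads as the RNA does, and are shown because the results return to them. For each gene, the first line holds the last 30 transcribed bases with the signal hexamer in capitals, and the second line the next 30 bases of the genome.
PAPOLA, last bases: acacAATAAAaaaaaaacagcacaatctca
PAPOLA, next bases: cagttgcctgatttcttttgactactactt
XRN2, last bases: aaaaaaAATAAAgttaaacttttaaaactc
XRN2, next bases: tgttttgtgttgttattttgcagtatttca
SELENOT, last bases: cattgtgaaAATAAActttgattaagctga
SELENOT, next bases: tttgaaaggaactcctactttgtggaatta
SALL4, last bases: aaAATAAAatttgaatgtttttttttctca
SALL4, next bases: cccaggtgtatataaatttttctggtactt
DPPA4, last bases: tatacaaAATAAAttaataattggagtcta
DPPA4, next bases: ccagtaagacagtttatttactcatcttcc
EEF2, last bases: attggaatAATAAAtttgataaggtggtga
EEF2, next bases: ctctgttctgcatttttcacggtgtcttcg
SP6, last bases: ttatgcAATAAAgtcatcaactacatcatg
SP6, next bases: cttcctttgtgttccagctctgtttccttt
UTF1, last bases: tatgttcAATAAAaggattgttttcctaga
UTF1, next bases: gtccgggctgtgtaggagtgcgggtctgga

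In genome coordinates the last 30 bases are chr14:96567087-96567116 (plus strand) for PAPOLA, chr20:21389796-21389825 (plus) for XRN2, chr3:150630407-150630436 (plus) for SELENOT and chr10:133231529-133231558 (plus) for UTF1. They are chr20:51782331-51782360 (minus strand) for SALL4, chr3:109326144-109326173 (minus) for DPPA4, chr19:3976056-3976085 (minus) for EEF2 and chr17:47844908-47844937 (minus) for SP6. Each lies in the annotated 3′UTR of its canonical transcript, and the next 30 bases lie outside every annotated transcript.

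Most ends carried the bases that the cleavage machinery reads. AATAAA was found 10 to 40 bp before 6222 ends (63.8%) and, where it was absent, ATTAAA before 1429 (14.6%), which left 2108 (21.6%) with neither. The first base of the hexamer lay a median of 23 bp before the last base, with quartiles of 20 and 25 bp. Only the coding strand was searched, and a match is a run of letters and not a shown site of cleavage. In 48764 windows of the same length with the same GC content, placed over 3000 bp from any gene start or end, the same search found AATAAA in 3.65%, ATTAAA alone in 2.27% and neither in 94.1%.

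Averaged over all ends, the bases changed sharply at the end itself. Adenine stood at 83.6% of last bases and at 3.26% of the bases that followed, and thymine peaked at 47.1% at 19 bp downstream. Over 100 bp, GC content was 35.2% upstream and 41.7% downstream, against 45.0% in the flanks 1000 to 1500 bp away. The lower GC content upstream came with more adenine, 31.6% upstream against 24.9% downstream, whereas thymine was nearly even at 33.2% and 33.4%.

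**Figure D1:**
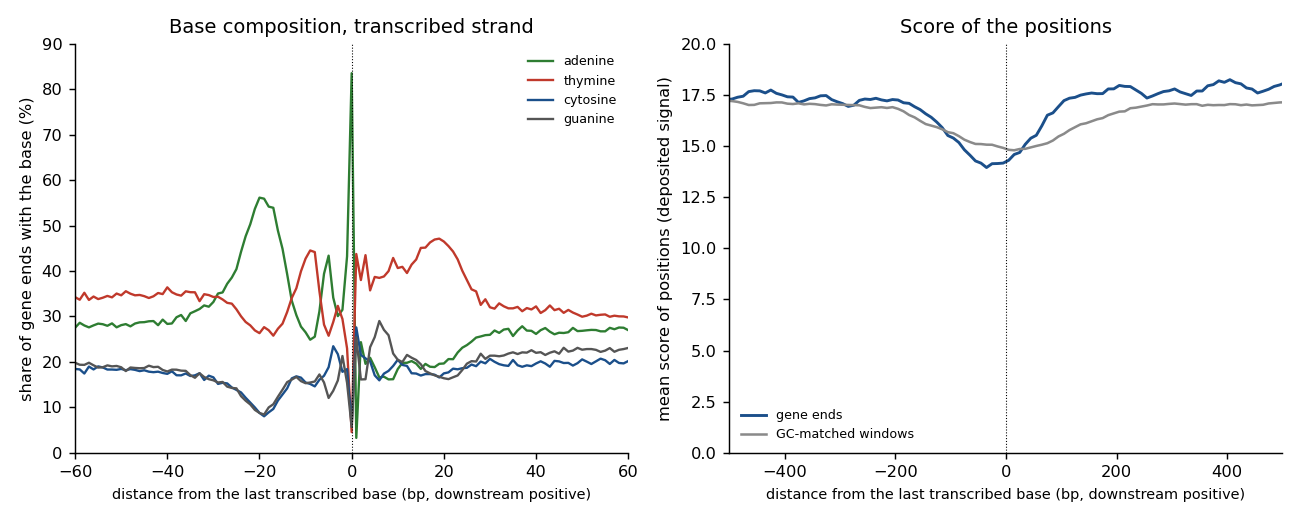
Left, share of the 9759 gene ends (%) with each base at each distance (bp) from the last transcribed base, with the adenine-rich signal about 20 bp upstream, the adenine at the last base (83.6%) and the thymine-rich stretch that peaks at 19 bp downstream (47.1%). Right, mean score of positions (the deposited signal) by distance of their midpoints, for gene ends and GC-matched windows, with the lowest scores near the end in both. The strand called transcribed in the left title is the coding strand.

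Nucleosome positions were scarcer at gene ends than in their flanks. Within 100 bp either side of the last base there were 4.22 midpoints per kb (SD 0.356, n = 22 autosomes), against 4.97 per kb (SD 0.218) in the flanks 1000 to 1500 bp away. The log2 ratio was -0.24 (SD 0.0735), and it was below 0 on 22 of 22 autosomes. It ranged from -0.43 on chromosome 4, where the 100 bp either side of the end averaged 32.9% GC, to -0.13 on chromosome 19, where they averaged 45.2% GC.

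Windows with the same GC content were depleted to nearly the same extent. Each end was paired with up to 5 windows on its own autosome with the same GC content within 100 bp of the centre (to 1 percentage point) and within 1500 bp (to 2 points). These windows had 4.17 midpoints per kb in the centre and 4.84 per kb in the flanks, a log2 ratio of -0.21 (SD 0.0585). The central density at gene ends was 1.01 times that of the windows, a log2 ratio of 0.016 (SD 0.0580), so the difference lay within the spread between autosomes. Fewer than 12 positions were called within 1500 bp at 12.3% of ends and 15.0% of windows. With at least 12 positions the log2 ratio was -0.029, of the other sign and also within that spread. The density expected from the GC content of a nucleosome-sized stretch at each offset gave a central log2 ratio of -0.23. Against intergenic windows alone the log2 ratio of ends to windows was 0.077, and against intronic windows alone it was -0.017. Chromosome 8 stood apart with -0.21, where the other 21 autosomes ranged from -0.029 to 0.091. On chromosome 8, 20.6% of ends had fewer than 12 positions, against 2.61% to 19.7% on the others, and its part in that value was not tested.

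**Figure D2:**
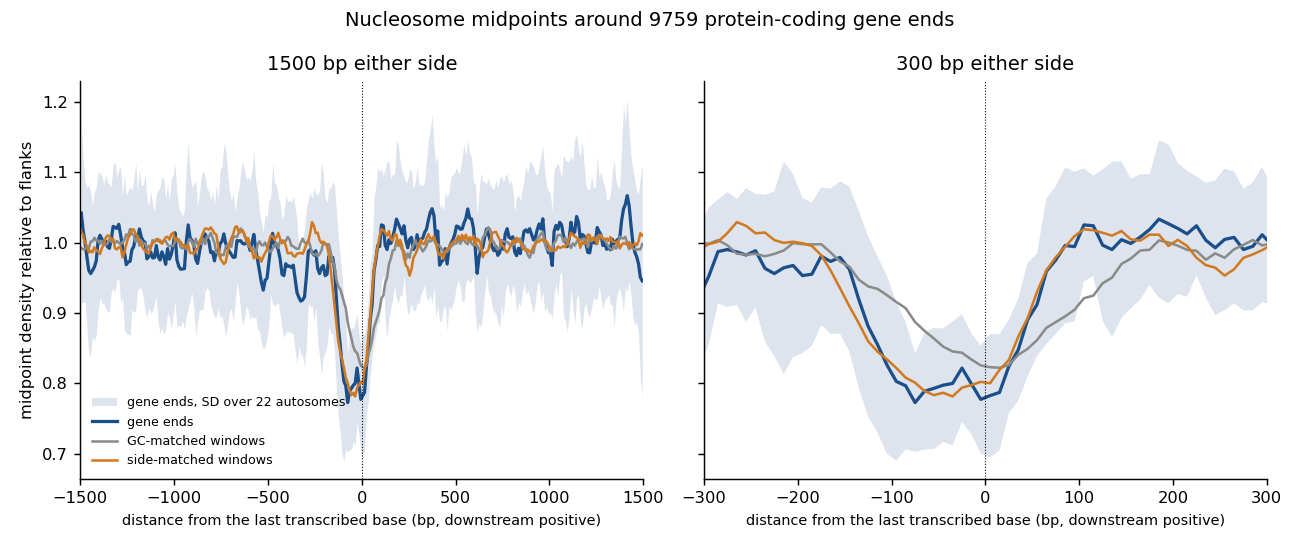
Midpoint density relative to the flanks against distance (bp) from the last transcribed base, for gene ends (shading, SD over 22 autosomes), GC-matched windows and windows matched on each side separately, over 1500 bp (left) and within 300 bp (right). Gene ends reach a minimum of 0.772 at -75 bp and recover sooner downstream than upstream, which the windows matched on each side separately also do.

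Averaged over all ends, the lowest density lay upstream of the last base, though not in every quartile of GC content. In 10-bp bins smoothed over 5 bins, it reached a minimum of 0.772 of the flanks at -75 bp, and it lay between 0.772 and 0.824 from there to 25 bp downstream. On single autosomes the minimum lay at a mean of -47.3 bp (SD 50.4), so the end itself lay within that spread. In quartiles of GC content over 100 bp either side, from lowest to highest, it lay at 5, 15, -75 and -55 bp. The highest density between 50 and 300 bp downstream was 1.03 of the flanks at 185 bp (mean 182 bp, SD 61.7 over autosomes), and the highest between 300 and 50 bp upstream was 0.990 at -275 bp (mean -215 bp, SD 51.2). Neither maximum had a stable location, and no series of regular maxima was resolved on either side of the averaged end.

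Gene ends also differed between their sides. From 50 to 150 bp downstream there were 4.91 midpoints per kb (SD 0.415), and over the same distance upstream there were 4.12 per kb (SD 0.447). The downstream side was 1.19-fold higher, a log2 ratio of 0.25 (SD 0.119), and it was the higher side on 21 of 22 autosomes and equal on chromosome 21. GC-matched windows, read in the direction of their paired gene, had a log2 ratio of 0.0048 (SD 0.0603). The difference between sides at gene ends exceeded that of these windows on 22 of 22 autosomes.

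That asymmetry was also present in windows away from gene starts and ends, many of them inside introns, with the same GC content on each side. When the 100 bp before and the 100 bp after the centre were matched separately, within 2 percentage points, 48356 such windows had a log2 ratio of 0.26 between their sides, 1.201-fold. The difference, gene ends less these windows, was -0.013 on the log2 scale, far within the spread over autosomes. The ratio expected from GC content at each offset was 0.18. Among 37130 GC-matched windows that held the same signal hexamer at the same distance before their centre, away from gene ends, it was 0.12, against 0.28 at the gene ends with a signal.

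**Figure D3:**
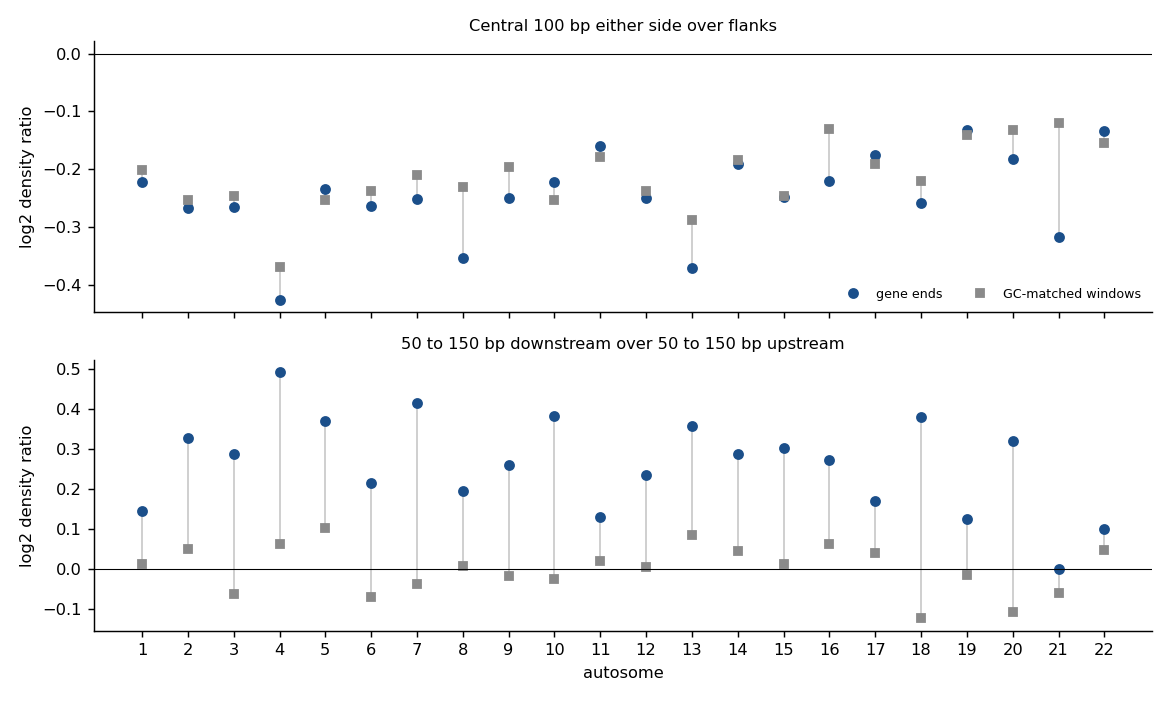
Log2 density ratios on each of the 22 autosomes for gene ends (circles) and GC-matched windows (squares), joined by lines. Top, the central 100 bp either side over the flanks, below 0 on every autosome in both sets. Bottom, 50 to 150 bp downstream over 50 to 150 bp upstream, above 0 for gene ends on 21 of 22 autosomes and near 0 for the windows.

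Farther from the end, the sides differed little. From 100 to 600 bp, gene ends had 5.02 midpoints per kb downstream and 4.77 upstream, a log2 ratio of 0.075 (SD 0.0699), against 0.0010 in GC-matched windows, 0.027 in windows matched on each side and 0.085 from GC content at each offset. The downstream density over this range was 1.04 times that of windows matched on each side (log2 0.051, SD 0.0637) and higher on 19 of 22 autosomes. A similar excess was present far from the end, at 1.03 times from 1000 to 1500 bp downstream (17 of 22 autosomes) and 1.02 times over the flanks of both sides (18 of 22). Among ends and windows with at least 12 positions the ratio at 100 to 600 bp downstream was 1.02.

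The positions near gene ends also had lower scores. The mean score was 15.1 within 100 bp of the end and 17.7 in the flanks, a log2 ratio of -0.23 (SD 0.0623) that was below 0 on 22 of 22 autosomes. GC-matched windows had 15.1 and 17.2. From 50 to 150 bp, the mean score at gene ends was 15.5 upstream and 16.98 downstream. The corresponding values in windows matched on each side were 14.8 and 16.5. Gene ends were 1.05-fold higher upstream (log2 0.070, SD 0.0737, higher on 19 of 22 autosomes) and 1.03-fold higher downstream (log2 0.043, SD 0.0552, higher on 15). Both differences were smaller than the spread over autosomes. The flanks were also 1.03-fold higher (log2 0.039, SD 0.0312, 19 of 22), whereas the central region was level at 0.9997 (12 of 22).

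Single ends were as often inside a position as the centres of GC-matched windows. The last base lay inside a deposited position at 5385 of 9759 ends, 55.2% (95% Wilson interval 54.2% to 56.2%), and in 54.7% of windows (54.2% to 55.1%). The other 4374 ends, 44.8%, had no position over the last base. Moving along the gene, coverage at gene ends less that of the windows was -3.06 percentage points at 50 bp upstream and 5.56 points at 100 bp downstream, where 64.6% of gene ends were covered. The midpoints on either side of the last base were a median of 240 bp apart in both sets, with quartiles of 180 and 370 bp. The nearest upstream midpoint lay a median of 129 bp away and the nearest downstream midpoint 112 bp away, against 120 and 121 bp in the windows. At 1332 ends (13.6%) the midpoints either side were at least 500 bp apart, against 14.5% of windows.

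GC content separated the ends far more than any annotation did. In the lowest quartile of GC content over 100 bp either side (9.45% to 30.8%, 2473 ends), the central log2 ratio was -0.78 (SD 0.114), the last base was covered at 35.9% and the median distance between midpoints was 370 bp. In the next (31.3% to 36.3%) the log2 ratio was -0.27 and coverage 53.9%. In the third (36.8% to 44.3%) it was -0.045 with 65.3% covered, and in the highest (44.8% to 74.1%, 2403 ends) it was -0.011 (SD 0.124) with 66.3% covered and 200 bp between midpoints. GC-matched windows followed the same order, with log2 ratios of -0.78, -0.22, -0.048 and 0.023. Coverage of their centres was 33.4%, 53.0%, 62.2% and 71.0%. In the highest quartile ends were covered less often than their windows, with 95% Wilson intervals of 64.4% to 68.2% and 70.2% to 71.8%. In the third they were covered more often, with intervals of 63.4% to 67.2% and 61.3% to 63.0%, and in the lowest quartile the intervals of 34.0% to 37.8% and 32.5% to 34.2% overlapped. In the third quartile 8.63% of ends and 12.5% of windows had fewer than 12 positions within 1500 bp. In the highest these shares were 6.49% and 6.44%, and their part in coverage was not tested. SELENOT (a selenoprotein of the endoplasmic reticulum), XRN2 and PAPOLA, printed above, fall in the lowest quartile, and SP6, EEF2 and UTF1 in the highest.

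**Figure D4:**
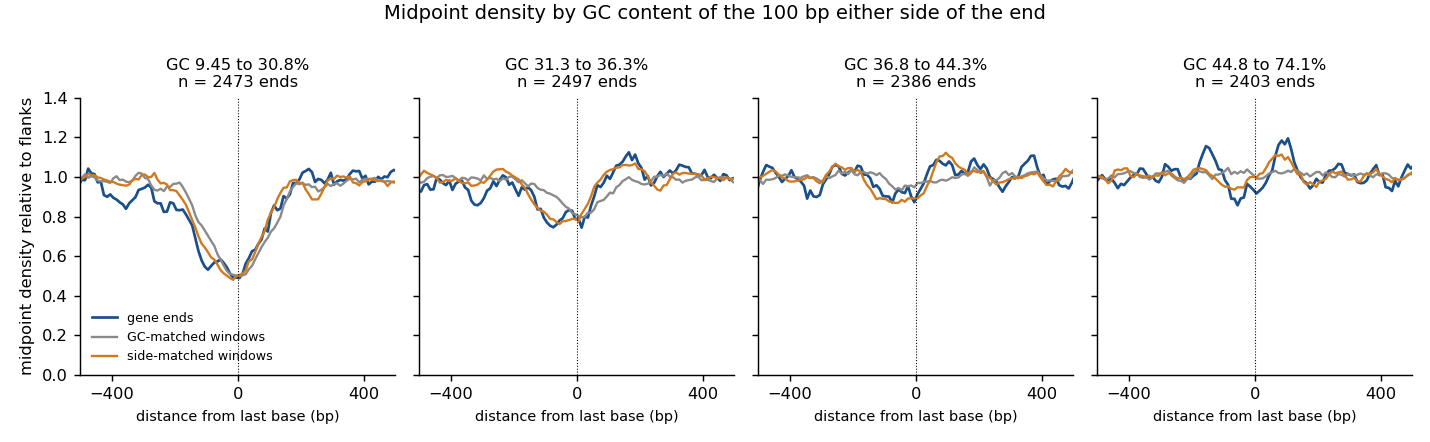
Midpoint density relative to the flanks against distance (bp) from the last transcribed base, in quartiles of gene ends by GC content of the 100 bp either side, with GC-matched and side-matched windows. The depletion is deep in the lowest quartile (central log2 ratio -0.78) and near 0 in the highest, where maxima of 1.16 and 1.195 flank a minimum of 0.857.

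Ends in the highest GC quartile had a maximum on either side in the averaged profile, and so did windows matched on each side. The density rose to 1.16 of the flanks at -155 bp, fell to 0.857 at -55 bp and rose to 1.195 at 105 bp, with 260 bp between the maxima. Windows matched on each side in the same quartile had their maxima at -175 and 85 bp, also 260 bp apart, with heights of 1.04 and 1.11 and a minimum of 0.936. From 200 to 100 bp upstream these gene ends were 1.06 times the side-matched windows (log2 0.087, SD 0.147, higher on 15 of 22 autosomes), and from 50 to 150 bp downstream 1.04 times (log2 0.056, SD 0.223, higher on 13). These regions were chosen after the profiles were seen, and both differences were smaller than the spread over autosomes.

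Classes of signal hexamer differed little once set against their windows, with log2 ratios of ends to windows of 0.040 (SD 0.0586) for AATAAA, 0.0057 (SD 0.202) for ATTAAA and -0.048 (SD 0.187) for neither, all within their spread. The central log2 ratio was -0.24 (SD 0.0791) at ends with AATAAA, -0.31 (SD 0.179) at ends with ATTAAA and -0.16 (SD 0.105) at ends with neither, and the matched windows of each group had -0.23, -0.27 and -0.13. Ends with neither hexamer had more GC just upstream, 38.3% over 100 bp against 34.1% with AATAAA and 32.9% with ATTAAA. The log2 ratio between their sides at 50 to 150 bp was 0.14 (SD 0.312), against 0.28 (SD 0.133) with AATAAA and 0.28 (SD 0.402) with ATTAAA. These values lay within the spread of the group with neither. The sides of each class were not set against windows matched on each side. Within the lowest GC quartile, the central log2 ratio was -0.80 (SD 0.124) at the 2077 ends with a signal and -0.70 (SD 0.636) at the 396 without, and their matched windows had -0.80 and -0.70. In the next quartile it was -0.27 both with and without a signal, in the third -0.051 and -0.021, and in the highest -0.026 and 0.032.

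Splits by transcript structure moved together with base composition, though not in every measure. Ends of 3′UTRs under 300 bases, stop codon included (1723 ends), had a central log2 ratio of -0.10 and a log2 ratio between sides of 0.049, and those of 3′UTRs of 2000 bases or more (3326) had -0.27 and 0.30. The 100 bp upstream held 41.4% GC in the first group and 31.5% in the second, and their matched windows had central log2 ratios of -0.12 and -0.27. Ends that 3 or more annotated transcripts share within 10 bp (2320 ends) were covered at 59.8%, and ends used by a single transcript (5099) at 53.1%, against 57.6% and 53.7% of their windows. Fewer than 12 positions within 1500 bp were called at 8.23% and 14.7% of these ends, against 13.2% and 16.1% of their windows. The 660 ends with an unbroken run of 10 or more A or T bases within 100 bp had a log2 ratio to their windows of -0.10 (SD 0.269), and the 626 ends with a run of 8 or 9 had 0.12 (SD 0.254), both within their spread. Coverage was 51.1% against 52.4% of windows in the first of these groups and 55.1% (95% Wilson interval 51.2% to 59.0%) against 48.8% (47.1% to 50.6%) in the other. The shares with fewer than 12 positions were 12.9% of ends and 14.5% of windows in the first, and 11.2% and 16.2% in the other. What part such shares had in coverage was not tested.

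Some classes of ends held fewer called positions. The 127 canonical transcripts without the MANE Select tag, which marks a transcript agreed between the main annotation projects, were covered at 41.7% against 61.6% of their windows, and 40.2% of them had fewer than 12 positions within 1500 bp against 14.5% of their windows. Single-exon transcripts (513 ends) were covered at 49.9% against 56.0%, with fewer than 12 positions at 25.9% and 17.2%. What part missing positions had in these values was not tested.

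Across the distance to the nearest other gene used to choose the ends, central log2 ratios differed by less than their spread. Ends with that gene over 2000 and up to 3000 bp away (1044) had -0.23 (SD 0.180) and were covered at 56.9%. Ends just left out, with a gene over 1000 and up to 2000 bp away (1206), had -0.16 (SD 0.205) and 59.5%. All 9352 ends left out had -0.17 (SD 0.105) and 59.2%, against -0.24 (SD 0.0735) and 55.2% at the ends kept. These groups were not compared at matched GC content.

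Pluripotency genes show what single ends look like. Of a list of 16, 10 met the rule. Their last base was outside every position at 3 ends, against the 44.8% of all ends, and the midpoints either side were at least 500 bp apart at 3 ends, against the 13.6% of all ends. The distances ran from 100 to 775 bp with a median of 315 bp. Of the windows matched to these 10 ends, 38% had no position over the centre. No expression was measured, and the lists serve only to identify genes.

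The widest of these distances belonged to LIN28A (ENSG00000131914.11), an RNA-binding protein that blocks the processing of let-7, with 775 bp, and its end had only 8 positions within 1500 bp. A position scoring 24.7, centred 24 bp downstream, nevertheless covered its last base. LIN28B, its paralogue, had 655 bp and no position over the end, with 11 positions within 1500 bp. DNMT3B, a de novo DNA methyltransferase, had 595 bp, and its nearest upstream position lay 499 bp away while the downstream neighbour lay 96 bp away. The downstream neighbour was the nearer one at all 3 of these ends, as it also was at GDF3, DPPA4, ZFP42, PRDM14 and TERF1 on the list. The upstream neighbour was nearer at UTF1 and SALL4. Over all gene ends the downstream midpoint also lay closer, at a median of 112 bp against 129 bp upstream, so this is not particular to the list. The share of all ends with the downstream neighbour nearer is not given here.

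The other pluripotency ends had neighbours 100 to 360 bp apart. At UTF1, a chromatin-associated protein, midpoints lay 6 bp upstream and 94 bp downstream of the last base, 100 bp apart, in DNA of 63.2% GC. At DPPA4 they were 120 bp apart, and the position over the end scored 24.7. SALL4, a zinc finger transcription factor, had a position scoring 19.7 centred 61 bp before the end, so that the hexamer printed above lay inside it, and the next midpoint followed 229 bp after the end. The end of ZFP42 was covered with a score of 12.3 in a distance of 340 bp, that of TERF1, a telomere-binding protein, with 9.87 in 360 bp and that of PRDM14 with 17.3 in 220 bp. GDF3, a secreted TGF-β family ligand with neither hexamer, had midpoints 128 bp before and 82 bp after its end and no position over it.

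The genes of the cleavage and polyadenylation machinery themselves had AT-rich ends. Of a list of 20, 8 met the rule, with a median GC content of 30.1% over 100 bp either side. All 8 had AATAAA, against 63.8% of all ends. The last base lay outside every position at 6 of these 8 ends, beside 60% of their GC-matched windows and 44.8% of all ends. The distances between midpoints ran from 120 to 400 bp with a median of 280 bp. None reached 500 bp, against 13.6% of all ends that did.

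The ends of both poly(A) polymerase genes were free of positions. PAPOLA had midpoints 174 bp upstream and 196 bp downstream with scores of 7.40 and 12.3, and PAPOLG had them at 119 and 116 bp with scores of 6.17 and 7.40. XRN2, the nuclear exonuclease that degrades the RNA downstream of the cut, had midpoints at 173 and 227 bp, 400 bp apart, around an end with 24.9% GC. The ends of CSTF1, CLP1 and RBBP6, which encode further factors of 3′ processing, lay in gaps of 350, 270 and 290 bp. CPSF2 and CPSF7 were the exceptions. A position scoring 7.40, centred 7 bp downstream, covered the end of CPSF2, and a position scoring 14.8, centred 63 bp upstream, covered that of CPSF7.

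**Figure D5:**
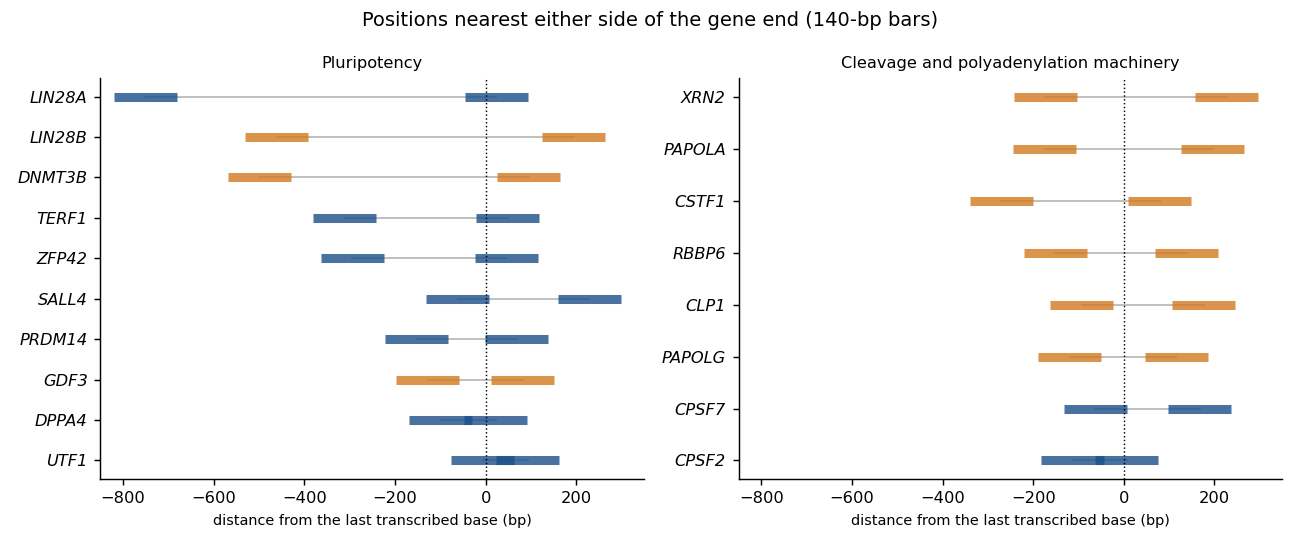
The nearest position on either side of the last transcribed base (dotted line) at the 10 pluripotency ends and the 8 ends of cleavage and polyadenylation genes, ordered by the distance between their midpoints. Bars are the 140-bp positions, blue where a position covers the last base and orange where none does, at distances in bp. The gap is widest at LIN28A (775 bp), and 6 of 8 ends on the right are uncovered.

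At EEF2, the elongation factor whose locus holds the reporter cassette of this line, the end was covered by a position scoring 24.7 and centred 16 bp upstream, in DNA of 54.7% GC. Positions were placed on the reference, which lacks the cassette, and its part in this value was not tested. The end of ACTN2, a sarcomeric α-actinin gene, had ATTAAA, 23.9% GC and no position over it, with midpoints 209 bp before and 206 bp after.

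Among the 8561 ends with at least 12 positions within 1500 bp, the widest distances between midpoints were 1140 bp at HAVCR2, 1100 bp at WDR4, 1090 bp at FMN1 and 1010 bp at both IQCB1 and SELENOT. The gap lay downstream at HAVCR2, where the next midpoint came 1090 bp after the end, and at WDR4, where it came after 944 bp. It lay upstream at FMN1 and SELENOT, with midpoints 1058 and 774 bp before the end, and on both sides at IQCB1, with 521 and 489 bp. Only FMN1, IQCB1 and SELENOT of these had a signal hexamer.

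The highest-scoring positions over an end lay in GC-richer DNA. The position over the end of SP6, a zinc finger transcription factor, scored 70.3 and was centred 26 bp downstream, in 45.8% GC. At POLR2A, which encodes the largest subunit of RNA polymerase II, the position scored 64.2 with 66.2% GC, but its annotated canonical transcript stops at the stop codon and has neither hexamer. NRSN2, AKR1A1 and DPF1 followed with 61.7, 59.2 and 53.1. Over all ends covered by a position, the median score was 13.6. These extremes were picked by the values given and are a description of single positions.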

How the data were processed

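MNase-seq of 5 digestions of hiPSCs was sequenced by the submitters at 2 read lengths. Per their processing notes and the paper's methods, reads were trimmed (Trimmomatic 0.40), aligned to GRCh38, filtered against blacklisted regions and run through the nucMACC workflow. The deposited score is a signal that is never negative. Its scaling, the calling program and the runs pooled are not given in the sources used here, so depth and sampling error are unknown, and an interval or SD given here covers only counting error or the spread over autosomes.

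The list was used without a filter. Gene ends came from GENCODE 44, where the paper's methods name release 48. Midpoints (start + 70) were counted by strand, and ends, gene lists and regions were chosen with earlier results of these data known. Up to 5 seeded windows were drawn per end, and 1 end had none. The ratio between sides at 50 to 150 bp, the windows matched on each side separately and the regions by GC quartile were added after seeing the data. Named ends are members of the pluripotency and cleavage lists, EEF2 and ACTN2, and, among ends with at least 12 positions, the 5 widest gaps and the 5 highest scores over an end. Members of the glycolysis, translation factor, cardiac sarcomere, liver plasma protein and neuronal synapse lists were counted only. The counting was tested on simulated positions. NumPy 2.4.6 and pandas 2.3.3 (Python 3.11.15) did the counting, SciPy 1.17.1 the Wilson intervals and matplotlib 3.10.9 the plots.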

Additional observations from a re-analysis of the deposited data

How the results depend on the processing

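Of 53 alternative values for 13 results, of which 13 were added after seeing the data, 37 stayed within 1 SD over autosomes of the reported value, 15 moved beyond it and 1 reversed. Values within 1 SD can still change sign. The log2 ratio of central density to GC-matched windows did so, at -0.017 with intronic windows alone and -0.029 with at least 12 positions. No paired analysis was possible because a pooled file has no replicates to pair, and for that reason no library was left out.

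Positions at or above the median score deepened the depletion. With these alone the central log2 ratio at gene ends was -0.64 (matched windows -0.56), the log2 ratio between sides 0.17 at 100 to 600 bp and 0.48 at 50 to 150 bp (0.49 less that of matched windows), the share of ends covered 25.02% (windows 25.7%), the median distance between midpoints 560 bp (windows 580 bp) and the log2 ratio of scores -0.072. Fewer positions must lower coverage and widen distances. Weighting by score gave a central log2 ratio of -0.46 and a ratio between sides of 0.38, also 0.38 less that of matched windows. Between 100 and 200 bp the ratio between sides was 0.12.

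The choice of windows decided the asymmetry. Less that of matched windows it was 0.25, against 0.077 less the value expected from GC content and -0.013, a reversal within the spread, less windows matched on each side. The ratio of central density to intergenic windows alone was 0.077. Bins of 25 bp moved the upstream maximum to -187.5 bp, and with at least 12 positions 59.4% of ends were covered (windows 60.5%). Where no cause is given, the cause was not tested. Location is limited by the list, in which most midpoints lie on a 10-bp grid, and by ends with few called positions.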

Other observations

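The ends of other gene groups, counted from lists that identify genes and not expression, were uncovered less often than their windows in each group except glycolysis. Of 12 cardiac sarcomere genes that met the rule, 4 ends had no position over the last base, against 40% of their GC-matched windows, and the midpoints either side were 115 to 1020 bp apart. Among 11 liver plasma protein genes 3 ends were uncovered, against 52.7% of windows. Among 9 neuronal synapse genes it was 3, against 53.3%, among 5 translation factors 1, against 40%, and among 4 glycolysis genes 2, against 45%. Over all ends the share was 44.8%, and lists of this size cannot be told apart from it by these counts.

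Without matching for GC content, the starts of the same canonical transcripts had a central log2 ratio of -0.24, as did their ends. The density 50 to 150 bp downstream of the start exceeded that upstream by 0.59 on the log2 scale, against 0.25 at the ends. The first base was covered at 51.0% of starts and the last base at 55.2% of ends. Starts were not set against GC-matched windows, and the rule on distance to other genes was applied only to the ends. How starts and ends compare once GC content and neighbouring genes are taken into account was therefore not tested.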
